A study of Mus musculus with 6 samples.

Results

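The Dppa genes were named as developmental pluripotency-associated genes, and Dppa2, Dppa3, Dppa4 and Dppa5a were taken by symbol from the annotation of the array. Of the 4 genes, 3 had a probe named by that annotation. Dppa3 had 1 probe, Dppa4 had 3 and Dppa5a had 3, which made 7 of the 25697 probes on the array. No probe carried the name Dppa2, so it was not analysed here. Of the 7 probes, 6 passed the detection filter.

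Signals came from 6 Illumina bead arrays hybridised with biotin-labelled cRNA from 500 ng of total RNA per sample, 2 arrays for each of 3 kinds of mouse cells. The piPSC arrays held pluripotent cells induced with recombinant proteins, and their labels carry the same culture text as the ES arrays. ES cells were of the established R1 line, kept on irradiated fibroblast feeders in serum with leukemia inhibitory factor. OG2-MEF were fibroblasts of E13.5 mouse embryos whose GFP transgene is driven by Oct4 regulatory sequence, and they grew on gelatin. The labels do not give the proteins used, the starting cells, the number of clones or the passage of piPSC. Paired arrays are labelled as biological replicates, but separate cultures or animals are not mentioned, so each p-value covers only the spread among the samples at hand, which may be technical.

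The genes share a name rather than a protein family. Dppa2 and Dppa4 encode nuclear SAP-domain proteins that bind each other and chromatin, lie side by side on chromosome 16 and, in mouse ES cells, are needed for genes of the 2-cell embryo and keep a set of developmental promoters free of DNA methylation. Dppa3, also called Stella, is a maternal factor of the oocyte and a marker of primordial germ cells that protects the maternal genome from demethylation in the zygote and restrains the methylation cofactor Uhrf1. Dppa5a, also called Esg1, encodes a KH-domain RNA-binding protein of early embryos, germ cells and ES cells.

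The 2 ES arrays stood less close to each other than the arrays of the other groups. Across the 10748 features tested (genes, with each unnamed probe counted on its own), the SD of the difference between the 2 arrays was 0.204 for piPSC, 0.57 for ES and 0.188 for OG2-MEF on the log2 scale. The ES difference was one-sided: 495 features were more than 2-fold lower on replicate 2 than on replicate 1, and 27 more than 2-fold higher. These counts were 2 and 0 for piPSC, and 0 and 1 for OG2-MEF. Total intensity was 15690377 to 15851013 on piPSC arrays, 13019817 to 14076530 on ES arrays and 19393092 to 19598206 on OG2-MEF arrays. Fibroblast markers fell in 11 of 12 tested genes in piPSC and in ES cells against OG2-MEF, with Lum the exception. Their summed signal was 18634 and 17196 on piPSC arrays, 15184 and 11593 on ES arrays, and 92671 and 88280 on OG2-MEF arrays. All 12 were detected on every array. Of 3 tested macrophage markers, Laptm5 was higher, Cd14 lower and Adgre1 neither in both pluripotent cell types. Their summed signal, 10316 and 11794 in piPSC, 9598.6 and 8817.1 in ES cells, and 471.65 and 511.64 in OG2-MEF, followed Laptm5, which changed by 5.24 in piPSC and 4.98 in ES cells on the log2 scale. The part of either marker list in the results was not tested. In bulk RNA, fewer cells of a type and less RNA per cell cannot be told apart.

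Dppa3 was high in piPSC, lower in ES cells and not above background in OG2-MEF. Its single probe, ILMN_1225176, read raw intensities of 2018 and 2366 in piPSC, 465 and 470.5 in ES cells, and 35.9 and 37.9 in OG2-MEF. After normalization its log2 signals were 11.09 and 11.31 in piPSC, 9.02 and 9.29 in ES cells, and 4.34 and 4.38 in OG2-MEF. The 3 groups did not overlap, but how many of all features separate in this way was not counted. The OG2-MEF values lay below 5.01 and 5.02, the lowest log2 signals that counted as detected on those arrays. A transcribed copy could share such a probe: the gene table lists 1 Dppa3 pseudogene, Dppa3-ps, on the X chromosome.

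Dppa4 was strong in both pluripotent cell types. Its brightest probe, ILMN_2593476, had intensities of 5787 and 6019 in piPSC, 4646 and 4464 in ES cells, and 34.0 and 30.8 in OG2-MEF. On the log2 scale these were 12.55 and 12.64 in piPSC, 12.40 and 12.46 in ES cells, and 4.32 and 4.29 in OG2-MEF. Both pluripotent groups lay far above the fibroblasts, whose arrays did not detect the probe.

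The other Dppa4 probes read lower. Probe ILMN_3155408 had log2 signals of 8.96 and 8.98 in piPSC, 9.02 and 9.22 in ES cells, and 4.33 and 4.40 in OG2-MEF. ES cells thus lay slightly above piPSC on this probe and slightly below it on the brightest one. Probe ILMN_3076469 was dim everywhere, with intensities of 105 and 89.5 in piPSC, 47.5 and 45.6 in ES cells, and 41.2 and 42.8 in OG2-MEF. It was detected on the piPSC arrays and on no other. All 3 probes carry the same transcript accession in the annotation.

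Dppa5a was among the brightest signals of the arrays in both pluripotent cell types. Probe ILMN_3090545 read intensities of 33034 and 31695 in piPSC, 28478.5 and 28019 in ES cells, and 64.9 and 63.5 in OG2-MEF. Its log2 signals were 14.89 and 14.87 in piPSC, 14.89 and 14.83 in ES cells, and 5.03 and 5.00 in OG2-MEF. The fibroblast values sat at the detection limit, with a detection p of 0.0414 on 1 array and 0.0526 on the other. A 2nd probe, ILMN_3018711, had log2 signals of 14.84 and 14.88 in piPSC, 14.83 and 14.80 in ES cells, and 4.45 and 4.52 in OG2-MEF, where it was not detected.

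These bright Dppa5a probes had little room above them. ILMN_3090545 stood at 99.2% and 93.8% of the highest intensity of its array in piPSC, and at 95.4% and 88.3% in ES cells. ILMN_3018711 stood at 95.9% and 95.2% in piPSC, and at 91.6% and 87.7% in ES cells. Their ranks among the 25697 probes ran from 4 to 15 on the 4 arrays. A further increase in RNA could therefore be understated by the intensity.

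The last Dppa5a probe went against them. ILMN_2774896 read intensities of 57.2 and 54.4 in piPSC, 46.4 and 49.3 in ES cells, and 52.4 and 50.9 in OG2-MEF. It was detected on 1 of 6 arrays, the first of piPSC, and its groups did not separate. The probe did not pass the filter and was not tested in the fit reported here. The gene table also lists 2 Dppa5a pseudogenes on chromosome 9, Dppa5b and Dppa5c, and whether any probe also binds such copies was not tested.

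**Figure D1:**
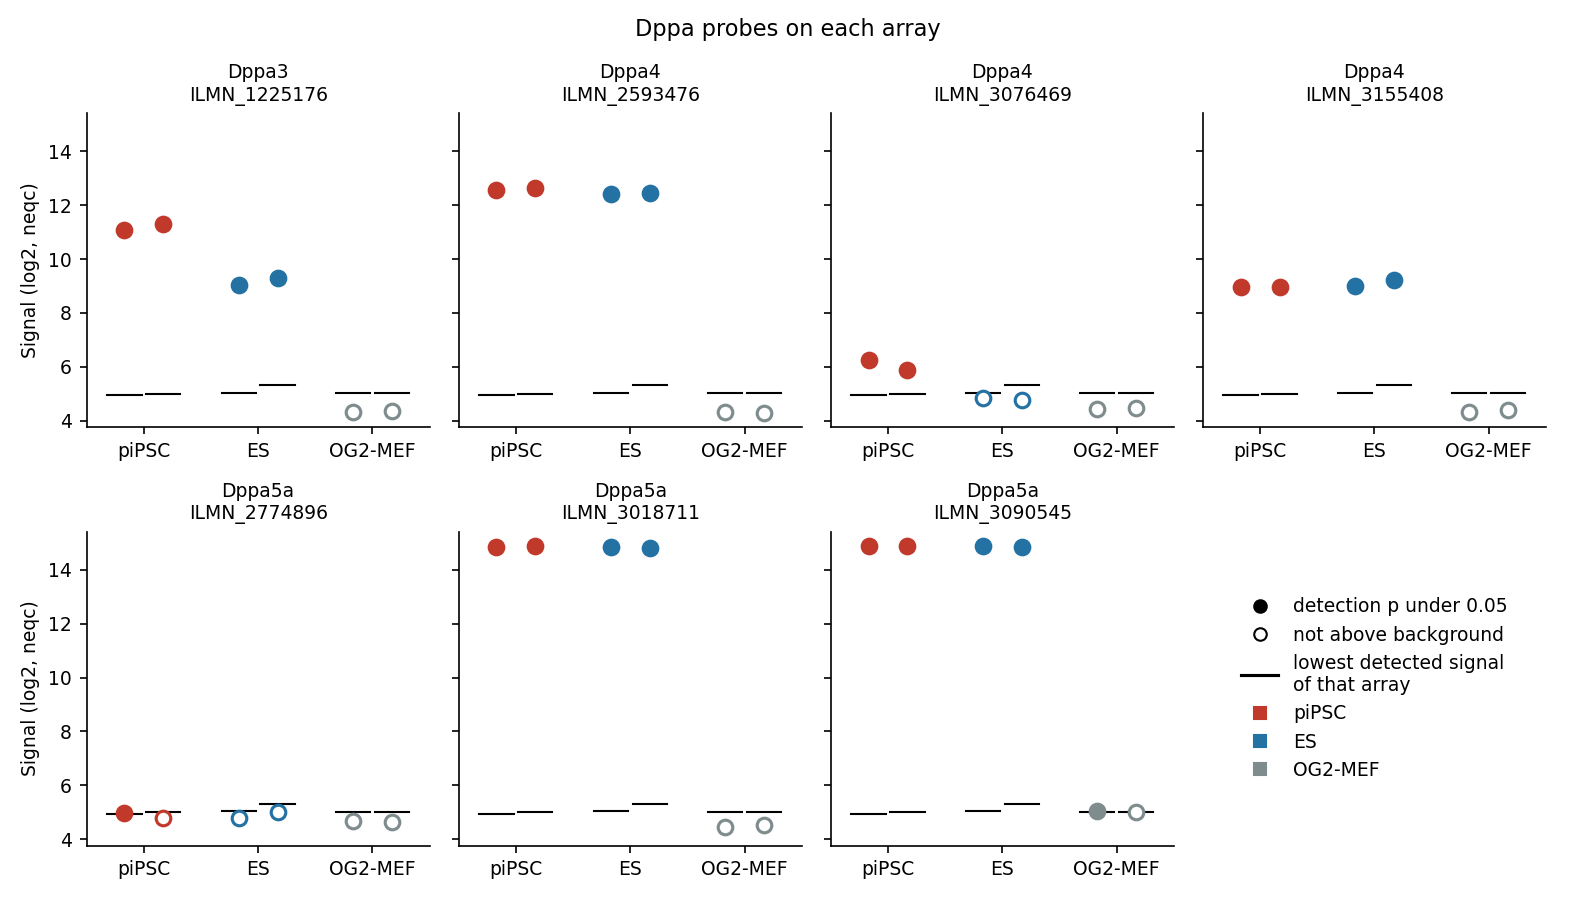
Normalized log2 signal of the 7 Dppa probes (vertical axis) on each array of piPSC, ES and OG2-MEF (horizontal axis); filled points have a detection p under 0.05 and black bars mark the lowest detected signal of that array. Dppa3 steps down from piPSC (11.09 and 11.31) to ES cells (9.02 and 9.29), Dppa4 and Dppa5a stand level on their brightest probes, and 2 of the 7 probes stay close to background.

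In piPSC against OG2-MEF, induced cells are set beside fibroblasts. Dppa3, Dppa4 and Dppa5a all rose, beside 20.0% of the 10748 features that were called higher and 21.4% called lower (limma, adjusted p under 0.05, change of 2-fold or more). All 3 passed the filter through the pluripotent arrays alone, so the count itself supports nothing. Dppa3 averaged 11.20 ± 0.16 in piPSC and 4.36 ± 0.03 in OG2-MEF (log2, SD, n = 2 each). The signal in piPSC was higher by at least 73.0-fold (limma, adjusted p = 1.1e-06). The bound sets the fibroblasts at the lowest detected signal.

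Dppa4 averaged 12.60 ± 0.06 in piPSC and 4.30 ± 0.02 in OG2-MEF, which made it higher by at least 192-fold (adjusted p = 5.4e-07). Its probe ILMN_3155408 gave at least 15.5-fold (adjusted p = 6.7e-06 over all kept probes, of which 2776 of 14533 were higher) and the dim ILMN_3076469 at least 2.10-fold (adjusted p = 0.00029). The probes agreed in direction and not in size. Dppa5a averaged 14.88 ± 0.01 in piPSC and 5.02 ± 0.03 in OG2-MEF, so the log2 difference was 9.87 with an SE of 0.12 (adjusted p = 5.4e-07). Only 1 of the 2 fibroblast arrays detected the probe, so the size of this difference is close to a bound. ILMN_3018711 gave at least 919.7-fold (adjusted p = 1.9e-06 over all kept probes).

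ES cells against OG2-MEF gives the same contrast for an established pluripotent line, with the same fibroblast arrays as the reference. The 3 genes rose here too, beside 25.1% of all features that were higher and 21.6% that were lower. Dppa3 averaged 9.16 ± 0.19 in ES cells and 4.36 ± 0.03 in OG2-MEF, and was at least 17.6-fold higher (adjusted p = 2.5e-06). Dppa4 averaged 12.43 ± 0.04 in ES cells and 4.30 ± 0.02 in OG2-MEF, and was at least 170.4-fold higher (adjusted p = 5.6e-07). Its probe ILMN_3155408 gave at least 17.2-fold (adjusted p = 5e-06 over all kept probes, of which 23.2% were higher).

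Probe ILMN_3076469 was not above background in ES cells or in OG2-MEF, so no fold is given. Dppa5a averaged 14.86 ± 0.04 in ES cells and 5.02 ± 0.03 in OG2-MEF, so the log2 difference was 9.84 with an SE of 0.12 (adjusted p = 5.6e-07). The same limit holds for its size. ILMN_3018711 gave at least 891-fold (adjusted p = 2e-06 over all kept probes).

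**Figure D2:**
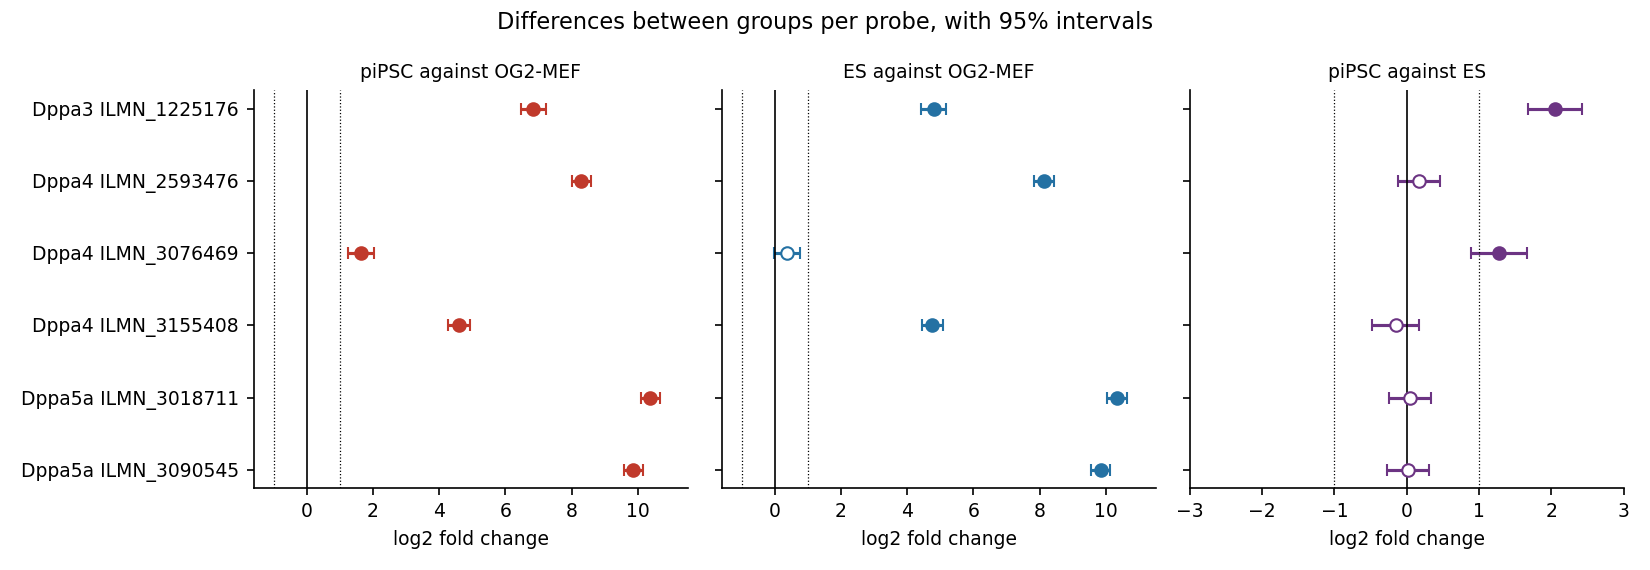
Log2 fold change of the 6 tested Dppa probes (horizontal axis, with 95% intervals of the limma fit over all kept probes) in piPSC against OG2-MEF, ES against OG2-MEF and piPSC against ES; filled points passed the test and the 2-fold minimum, dotted lines mark 2-fold, and fits against undetected fibroblast signals are not bounds. Every probe but ILMN_3076469 lies far to the right in both comparisons with fibroblasts, while only Dppa3 and that dim Dppa4 probe pass in piPSC against ES.

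Set directly against ES cells, piPSC had more Dppa3 signal and showed no called difference in Dppa4 or Dppa5a. Dppa3 averaged 11.20 ± 0.16 in piPSC and 9.16 ± 0.19 in ES cells, so the log2 difference was 2.05 with an SE of 0.15 (adjusted p = 0.0012). That is 4.14-fold, with a 95% interval of 3.21-fold to 5.33-fold. The background in this comparison was 4.32% of features higher and 4.34% lower. Both piPSC arrays exceeded both ES arrays, and the share of all features that separate in this way was not counted. The change ranked 186th from the most positive of the 10748 features, whose median difference was -0.175.

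Leaving out any single array kept Dppa3 between 1.92 and 2.16 on the log2 scale. Without ES replicate 2, which had the fewest detected probes (46.87%, against 50.71% on ES replicate 1), it was 2.16 (adjusted p = 1.8e-05). That fit takes the spread of ES cells from the other groups. With a test against a 2-fold change in place of no change, the adjusted p was 0.03. Beside this result, the summed fibroblast markers were 18634 and 17196 on piPSC arrays and 15184 and 11593 on ES arrays, and Dppa3 was not above background on either OG2-MEF array.

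Dppa4 differed by 0.17 between piPSC and ES cells (SE 0.12, adjusted p = 0.3), with a 95% interval of -0.12 to 0.46. The 2 piPSC arrays lay above the 2 ES arrays on this probe, without a call. How many of all features separate in this way was not counted. Probe ILMN_3155408 gave -0.15 (interval -0.48 to 0.17, adjusted p = 0.4 over all kept probes), the opposite direction. Both intervals lie within a 2-fold difference either way. The dim ILMN_3076469 read higher in piPSC, by at least 1.88-fold (adjusted p = 0.0055 over all kept probes, where 7.0% of probes were higher). It lost that call with the authors' matrix, where it changed by 0.82, and without piPSC replicate 1, where the adjusted p was 0.054.

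Dppa5a differed by 0.02 (SE 0.12, adjusted p = 0.91), with an interval of -0.26 to 0.31. ILMN_3018711 gave 0.05 (interval -0.24 to 0.34, adjusted p = 0.79 over all kept probes). Neither probe can show whether the RNA itself was equal, since both read near the top of the intensity scale. The levels of Dppa3 thus ordered as piPSC, ES cells and OG2-MEF, and those of Dppa4 and Dppa5a as 2 pluripotent groups without a called difference, then OG2-MEF.

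**Figure D3:**
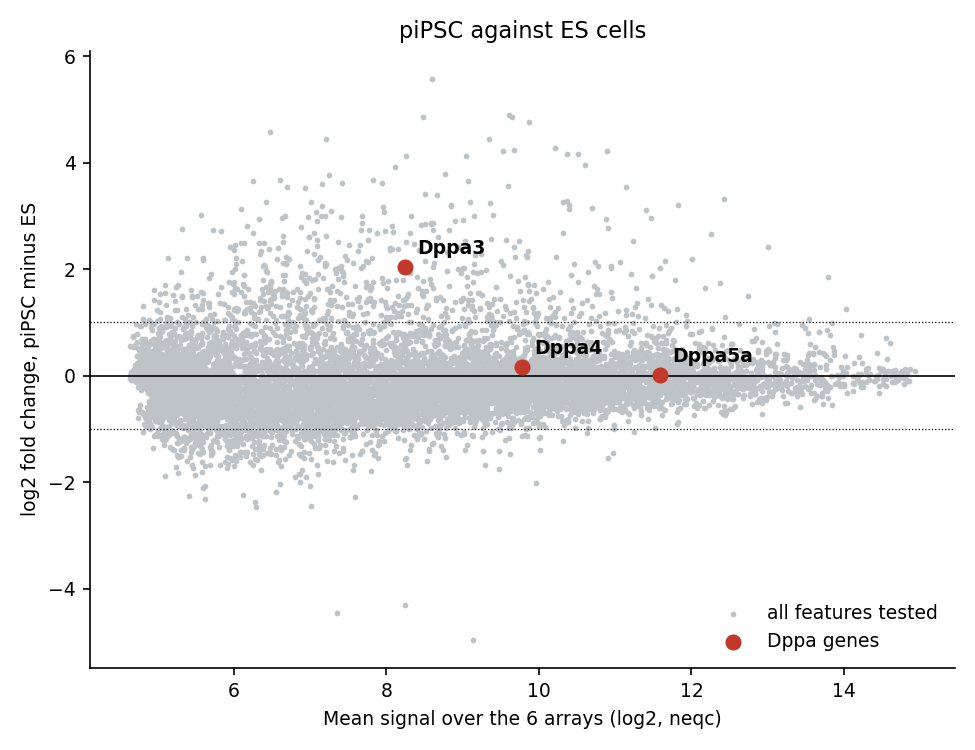
Log2 fold change of piPSC minus ES (vertical axis) against the mean log2 signal over the 6 arrays (horizontal axis) for all 10748 features in grey, with the 3 Dppa genes in red and dotted lines at 2-fold. Dppa3 stands at 2.05 above the 2-fold line, and Dppa4 (0.17) and Dppa5a (0.02) lie in the dense band around 0.

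The genes most like each Dppa gene were taken by the root mean square difference of log2 signals, each centred on its own mean, over the 6 arrays. Around Dppa4 these were Sall4 (0.121), Nanog (0.18) and Saa3 (0.204), and around Dppa5a they were Fbxo15 (0.275), Esrrb (0.376) and Rhox5 (0.514). Their log2 fold changes in piPSC against ES ran from -0.39 in Esrrb to 0.50 in Saa3, all under 2-fold. Dppa3 had another set: Oas1g (0.299), 2210409E12Rik (0.312) and Phf11d (0.318). Their log2 fold changes in piPSC against ES were 1.55, 2.69 and 1.81, beside 2.05 for Dppa3. Likeness was measured on the same arrays, so the closeness of these values to those of each Dppa gene follows from the choice. Between the Dppa genes the distance was 0.78 for Dppa4 and Dppa5a, 1.36 for Dppa3 and Dppa4, and 2.08 for Dppa3 and Dppa5a.

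On the chromosomes, the 6 protein-coding genes on each side were read from the gene order of the table. Dppa3 lies on chromosome 6 in a stretch with other pluripotency genes, between Gdf3 and Nanog. Gdf3, a TGF-beta family ligand of ES cells, was not detected in OG2-MEF and was at least 92.5-fold higher in piPSC and at least 113-fold in ES cells. Nanog, a core transcription factor of pluripotency that 1 of 2 OG2-MEF arrays detected, rose by 8.28 in piPSC and 8.41 in ES cells on the log2 scale. Slc2a3, which encodes the glucose transporter Glut3, rose by 5.30 in piPSC and 5.24 in ES cells, and Apobec1, an RNA-editing deaminase, by 2.97 and 2.48.

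Phc1, a Polycomb subunit farther out, rose by 2.57 in piPSC and 2.11 in ES cells. In all, 5 of 8 tested neighbours of Dppa3 rose in piPSC and 0 fell, beside 20.0% of all features higher and 21.4% lower. In ES cells 5 rose and 1, Foxj2, fell, beside 25.1% and 21.6%. Gdf3 and Nanog passed the filter through the pluripotent arrays alone, so their part in these counts supports nothing. None of the 8 was called in piPSC against ES with limma (3 at an unadjusted p under 0.05). In that comparison 4.32% of all features were called higher and 4.34% lower, so a count of 0 lies close to that share. Apobec1 came closest, with an adjusted p of 0.03 and a log2 difference of 0.49, under 2-fold. For the nearest neighbours of Dppa3 that difference was -0.29 in Gdf3 (adjusted p = 0.12) and -0.13 in Nanog (adjusted p = 0.51).

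Around Dppa4 on chromosome 16 few genes could be measured. Of the 12 neighbours 3 were tested, and 0 rose and 2 fell in piPSC, beside 20.0% of all features higher and 21.4% lower. Nectin3, a cell adhesion gene, changed by -1.89 in piPSC and -2.12 in ES cells. Phldb2 was not detected in either and was at least 1.59-fold lower in piPSC and at least 1.38-fold lower in ES cells. It passed the filter through the OG2-MEF arrays alone, so its part in the count supports nothing. Morc1, a germ cell gene on the far side of Dppa2, was detected on 1 of 2 piPSC arrays, both ES arrays and no OG2-MEF array, and was at least 1.43-fold higher in ES cells (adjusted p = 6e-04). Its bound in piPSC was 1.06-fold, so the 2 cell types cannot be placed on different sides of 2-fold. The strong Dppa4 signal thus had no tested neighbour of like size within this window.

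Dppa5a on chromosome 9 lies beside Ooep, another KH-domain gene, of the oocyte. Ooep was 152-fold higher in piPSC and 128-fold higher in ES cells than in OG2-MEF. The glutathione transferase gene Gsta2, on the other side, was at least 10.46-fold higher in piPSC and at least 6.22-fold in ES cells. Gsta1 was at least 11.8-fold higher in piPSC and at least 7.20-fold in ES cells, and neither was detected in OG2-MEF. These near-identical family members may share probe signal. Of 6 tested neighbours of Dppa5a, 3 rose and 1, Slc17a5, fell in piPSC, beside 20.0% of all features higher and 21.4% lower. In ES cells 4 rose and 0 fell, beside 25.1% and 21.6%. Gsta1 and Gsta2 passed the filter through the pluripotent arrays alone, so their part in these counts supports nothing. In piPSC against ES 1 of the 6 neighbours was called, Slc17a5, which was lower by a log2 difference of -1.39 (limma, adjusted p = 0.0033). An unadjusted p under 0.05 was reached by 4. The share of all features called there was 4.32% higher and 4.34% lower.

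**Figure D4:**
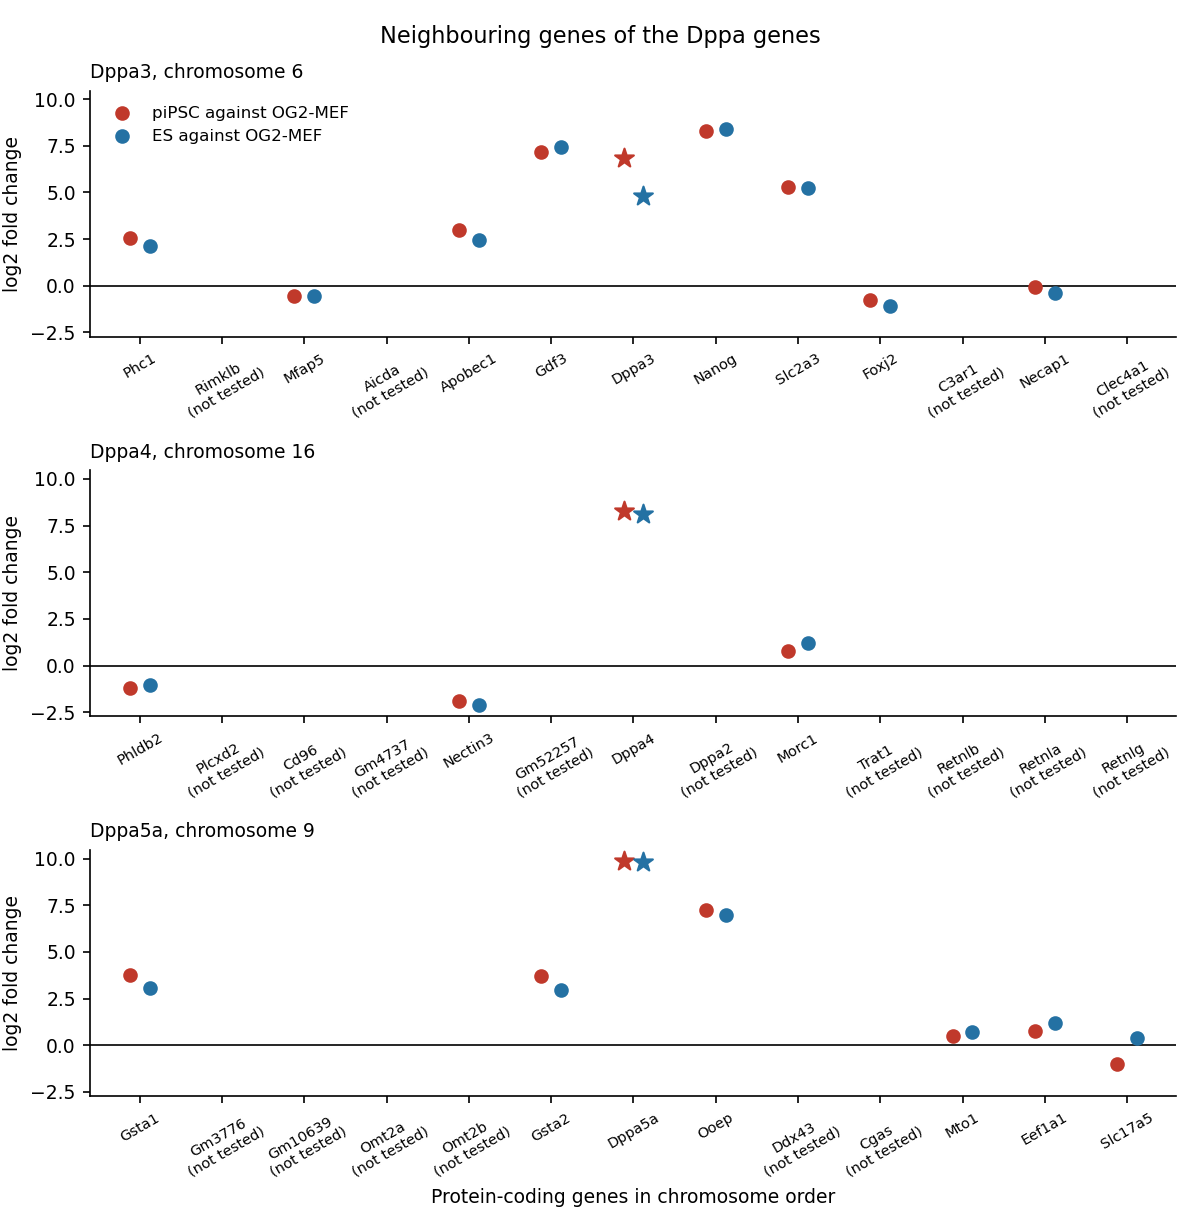
Log2 fold change against OG2-MEF in piPSC (red) and ES cells (blue) for Dppa3, Dppa4 and Dppa5a (stars) and the 6 protein-coding genes on each side in chromosome order (circles), as fitted, which is no bound where a group was not detected. Tall neighbours stand beside Dppa3 (Gdf3 and Nanog) and Dppa5a (Ooep). The genes directly beside Dppa4, Gm52257 and Dppa2, had no probe. Of its 12 neighbours 3 were tested, none of like height.

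Lists of genes from pluripotency, the early embryo, the germline and DNA methylation were described beside the Dppa genes. Whether the Dppa proteins act on these genes was not tested. Regulators of pluripotency rose in piPSC against OG2-MEF for 22 of 22 tested genes, with a median log2 fold change of 6.2 (5.58 with undetected fibroblast signals at their bound), beside 0.0203 over all features. Many entered the test through the pluripotent arrays alone, as the Dppa genes did. Pou5f1, which encodes Oct4, was at least 452-fold higher, Fbxo15, an F-box gene of ES cells, at least 411-fold, and Esrrb, which encodes an orphan nuclear receptor, at least 397-fold. Nanog changed by 8.28 (SE 0.14) and Sox2 was at least 19.7-fold higher. In ES cells 21 of 22 rose and 0 fell, with a median of 5.75 (5.17 with bounds) beside 0.146 over all features.

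Between piPSC and ES cells, 2 of these 22 genes were higher (Fgf4 and Prdm14) and 2 lower (Tdgf1 and Nr5a2), with a median of -0.104 beside -0.175 over all features. Without piPSC replicate 1, 0 were called in either direction, and without ES replicate 1, 5 were higher. Prdm14 passed the filter through the piPSC arrays alone. Pou5f1 changed by 0.82 (SE 0.26, adjusted p = 0.062), Nanog by -0.13 and Sox2 by -0.24 (SE 0.19, adjusted p = 0.34). The log2 signals of Pou5f1 were 13.82 and 13.85 in piPSC, and 13.44 and 12.60 in ES cells, with replicate 2 lower.

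Genes of the 2-cell embryo, for which Dppa2 and Dppa4 are known as upstream factors, rose for 5 of 7 tested genes in piPSC against OG2-MEF (median 2.4, or 1.78 with bounds) and for 4 of 7 in ES cells (median 1.34, or 0.719 with bounds). None fell in either, beside 20.0% of all features called higher in piPSC and 25.1% in ES cells. All of the tested list genes but Eif1a passed the filter through the pluripotent arrays alone, so these counts themselves support nothing. Zscan4c, a zinc finger gene of telomere maintenance, had log2 signals of 9.19 and 8.88 in piPSC, 7.28 and 5.56 in ES cells, and 4.40 and 4.53 in OG2-MEF. Tcstv1 had 7.91 and 7.85 in piPSC, 5.10 and 5.21 in ES cells, and 4.46 and 4.46 in OG2-MEF.

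Against ES cells, 4 of the 7 were higher in piPSC and 0 lower, with a median of 1.06. Beside them, 4.32% of all features were higher and 4.34% lower, with a median of -0.175. Tcstv1 and Usp17la passed the filter through the piPSC arrays alone, so they were tested only because piPSC were bright. Of 11 list genes with a probe, 7 were tested. Tcstv1 rose by 2.72 (SE 0.12, adjusted p = 0.00025) and Zscan4c by 2.62 (SE 0.51, adjusted p = 0.016). Tcstv3 rose by 1.12 (SE 0.21, adjusted p = 0.016) and Gm428 by 1.06 (SE 0.13, adjusted p = 0.0054). The count was 1 without either piPSC array, 2 without either OG2-MEF array, 3 without ES replicate 1, 4 without ES replicate 2 and 2 with the authors' matrix. With so few genes the list is a description of these arrays.

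Germline genes rose for 8 of 9 tested genes in piPSC and in ES cells and fell for 0, with medians of 3.69 (2.97 with bounds) in piPSC and 3.47 (3.47 with bounds) in ES cells. All of them but Tuba3a and Tdrd1 passed the filter through the pluripotent arrays alone, so these counts themselves support nothing. The share of all features called higher was 20.0% in piPSC and 25.1% in ES cells. Tex19.1, a germ cell gene of transposon control, was at least 167-fold higher in piPSC and at least 165-fold in ES cells, and Dazl, an RNA-binding protein of germ cells, at least 43.4-fold and at least 36.5-fold. Tdrd12, a Tudor-domain gene of the piRNA pathway, was at least 20.9-fold higher in piPSC and at least 33.1-fold in ES cells. Of the 19 germline genes with a probe, 10 did not pass the filter and were not tested. Between piPSC and ES cells 1 gene was higher, Tuba3a (1.00), and 1 lower, Mov10l1 (-1.68), beside 4.32% of all features higher and 4.34% lower. Tuba3a stood at the 2-fold limit, and the count of higher genes was 0 without either piPSC array, without either OG2-MEF array and with the authors' matrix.

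Of 8 tested DNA methylation genes, 4 rose in piPSC, with 1, Uhrf2, lower, beside 20.0% of all features higher and 21.4% lower. In ES cells 5 rose, with 0 lower, beside 25.1% and 21.6%. The list's lower counts were unstable: 0 in piPSC without piPSC replicate 2 or OG2-MEF replicate 2, and 2 in ES cells without ES replicate 1. Dnmt3l, a cofactor of the de novo methyltransferases that is also in the pluripotency list, was at least 121-fold higher in piPSC and at least 100.3-fold in ES cells. Dnmt3b, a de novo methyltransferase, rose by 5.31 in piPSC and 5.42 in ES cells. Uhrf1, which recruits Dnmt1 to replicating DNA and is bound by Dppa3, had 13.41 and 13.42 in piPSC, 13.56 and 13.56 in ES cells, and 11.41 and 11.49 in OG2-MEF. It rose by 1.97 in piPSC against OG2-MEF, and differed by -0.14 between piPSC and ES cells (SE 0.12, adjusted p = 0.39). None of the 8 was called in piPSC against ES with limma (3 at an unadjusted p under 0.05). Tdg, a thymine DNA glycosylase gene singled out for its spread, had 8.87 and 8.84 in piPSC and 7.68 and 4.58 in ES cells, where replicate 2 was far lower. Mbd3 had 10.05 and 10.06 in piPSC and 9.53 and 6.05 in ES cells, with the same replicate low. Without ES replicate 1 the count was 2 higher, and without ES replicate 2 it was 1.

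The KH-domain and maternal complex list held 3 tested genes beside Dppa5a. Of these, 2 rose in piPSC and 3 in ES cells, with 0 lower, beside 20.0% and 25.1% of all features called higher. Khdc3 passed the filter through the pluripotent arrays alone, so its part in these counts supports nothing. Khdc3, an oocyte gene also known as Filia, was at least 37.7-fold higher in piPSC and at least 51.8-fold in ES cells. Tle6, a member of the maternal complex, changed by 0.94 in piPSC, under 2-fold, and rose by 1.05 in ES cells. None of them was called in piPSC against ES with limma (0 also at an unadjusted p under 0.05), where Khdc3 differed by -0.46 (SE 0.22, adjusted p = 0.15) and Ooep by 0.25 (SE 0.12, adjusted p = 0.17). Calls covered 4.32% (higher) and 4.34% (lower) of all features in that comparison.

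**Figure D5:**
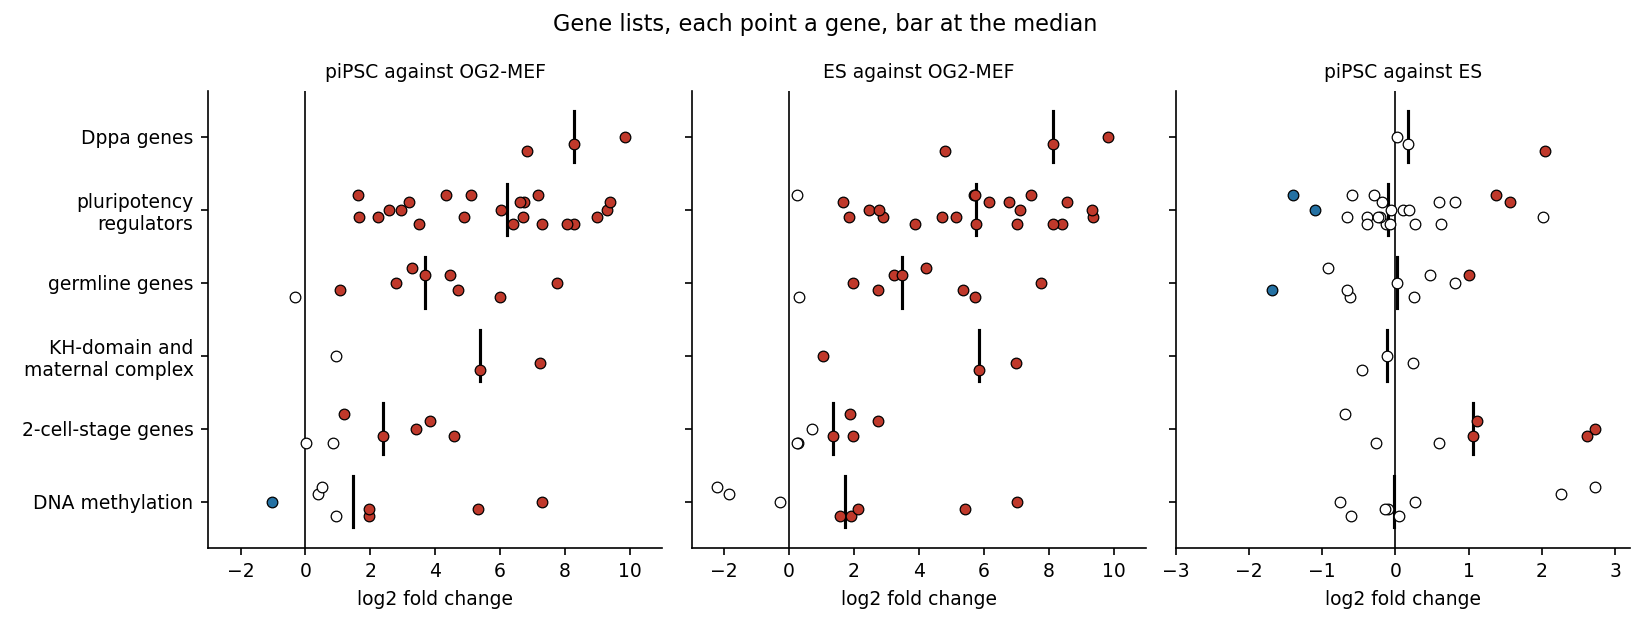
Log2 fold change (horizontal axis) of the Dppa genes and of 5 gene lists in the 3 comparisons, each point a gene, red if called higher, blue if called lower and white if neither, with a bar at the median of the fitted values. Against fibroblasts the 3 Dppa genes lie within or above the range of the pluripotency regulators, and against ES cells Dppa3 and 4 of the 7 2-cell-stage genes are called higher, while 2 uncalled genes of DNA methylation lie as far to the right.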

How the data were processed

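Per the file headers, the authors deposited linear intensities for 6 arrays, not normalized between arrays, and for every intensity a detection p-value. The authors' deposited matrix held log2 values; quantile-normalized log2 intensities without background correction matched them within 0.0012, and every column had a median of 5.89. The scanner software is not given in the sources used here.

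Normalization was by neqc in limma 3.58.1 (R 4.3.3): normexp background from detection p-values, offset 16, quantile scaling, log2. A gene table (GRCm38.p6) updated probe names and gave chromosomes and gene order only; 23978 of 25697 probes had 1 symbol, 0 had several and 1719 had none. A probe was kept where some group had a detection p under 0.05 on each of its arrays (14533 probes). The probe with the highest mean stood for a gene, and each of 848 unnamed probes for itself, giving 10748 features. Group means were fitted in 1 limma model (lmFit, eBayes) over all 6 arrays, with Benjamini-Hochberg adjustment per comparison; other probes come from the same fit over all kept probes. The fit was tested on simulated data. "At least" folds set an undetected group at the lowest detected signal of each array, or at its own if higher.

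Named genes are all Dppa probes, the 3 nearest by likeness, up to 4 members per list with the largest change in piPSC against OG2-MEF, Pou5f1, Sox2, Nanog and the neighbours. Genes that were the exceptions in a count were named after their values were seen, and so was the window of 6 neighbours chosen. The members and lists were chosen with earlier results of these data known. The number of arrays limits the precision. Alternatives covered the authors' matrix, background, scaling, filter, probe choice, threshold, spread, samples, replicate block and single arrays left out.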

Additional observations from a re-analysis of the deposited data

Results flagged for a closer look

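Dppa3 differed between piPSC and ES cells in its change against the same fibroblasts: the direct test gave 2.05 on the log2 scale (limma, adjusted p = 0.0012). The dim Dppa4 probe ILMN_3076469 differed likewise by 1.28 (adjusted p = 0.0055 over all kept probes), while the 2 brighter Dppa4 probes gave 0.17 and -0.15 without a call. The probe was not above background on the ES arrays, and its call ended in 5 of 18 alternatives. Groups of 2 arrays are too small for a test of outlying samples.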

How the results depend on the processing

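The count of called Dppa genes was 3 in piPSC against OG2-MEF, 3 in ES against OG2-MEF and 1 in piPSC against ES under each of 19 alternatives, single arrays left out included. Dppa3 in piPSC against ES ranged from 1.92 to 2.16 with an adjusted p between 5.6e-06 and 0.03. With the replicate block it was 2.05 (adjusted p = 0.0028), and the block changed no call of a Dppa probe. Replicate deviations correlated at 0.0101 between piPSC and ES, 0.06 between piPSC and OG2-MEF and 0.251 between ES and OG2-MEF. Whether arrays of equal number shared a batch cannot be told from the labels. Dppa5a in piPSC against ES turned to -0.12 with median scaling and ran from -0.011 to 0.051 with single arrays left out, and ILMN_3018711 to -0.10 with median scaling, none of them called. The fitted Dppa3 difference in piPSC against OG2-MEF was 5.46 with an offset of 50 and 6.84 with 16. It ran from 6.76 to 6.98 with single arrays left out. Dppa3 was not above background in OG2-MEF. ILMN_3076469 in piPSC against OG2-MEF fell under 2-fold with an offset of 50 (0.87). In piPSC against ES it was under 2-fold with the authors' matrix, with no background correction (both 0.82) and with an offset of 50 (0.72), and lost its adjusted p with treat (1) and without piPSC replicate 1 (0.054). Features called in piPSC against ES numbered 930, against 611 with the authors' matrix, 614 with no background correction, 519 with offset 50, 2933 by adjusted p alone, 72 with treat, 151 and 298 without piPSC replicate 1 or 2, and 1820 without ES replicate 1. In piPSC against OG2-MEF, 4454 became 7321 by adjusted p alone and 2651 with treat, and in ES against OG2-MEF 5020 became 7868 and 3173. Median scaling moved the median of all features by -0.202 in piPSC against OG2-MEF, by -0.209 in ES against OG2-MEF and by -0.0125 in piPSC against ES. The split of higher and lower features then became 1678 and 2875 in piPSC against OG2-MEF (2150 and 2304 with quantile scaling), 2190 and 2797 in ES against OG2-MEF (2696 and 2324), and 468 and 306 in piPSC against ES (464 and 466). The cause of these moves was not tested. Signals not above background limit what can be said of the fibroblasts.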
